A study of Mus musculus with 4 samples.

Results

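The genes described here encode the machinery that prepares origins for DNA replication and runs the replication fork: the origin recognition complex, the loaders and the Mcm helicase, the helicase activators, the polymerases, the sliding clamp and its loader, and the proteins that join, package and guard new DNA. They were chosen by name, as a fixed list of 50 symbols, and each was read from 1 probe set, the brightest on average over the 4 arrays among those annotated with that symbol alone. Of the 50, 49 were found among 18194 named genes, and Chaf1a is not analysed here. Expression was measured on 4 arrays of colon RNA from male mice, 1 array per group, so no difference has a replicate check and no test between groups was possible. The sources used here give neither age nor strain, nor the number of mice behind each array, nor the transactivator and the cell type that drive the inducible genes.

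The first pair came from H2B-GFP mice, whose histone H2B-GFP fusion is made under a tetracycline-responsive element. Both of its groups had 7 days of doxycycline, which labelled the crypt cells, and then 2 days without it. FACS of isolated crypts gave a bright fraction, GFPhigh, of non-proliferating epithelial cells and a dim fraction, GFPlow, of proliferating ones. Division dilutes the label, so the sort itself rests on cell division. The second pair came from isolated crypts, with no sort named, of male mice in which doxycycline induces β-catenin, the transducer of Wnt signals. Dox minus mice were untreated and Dox plus mice drank doxycycline at 2.0 mg/ml for 5 days, so the drug and the induced gene cannot be told apart.

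Cells license origins before S phase, when the origin recognition complex, Cdc6 and Cdt1 load the ring of Mcm2 to Mcm7 onto DNA, and they fire them once kinases, Cdc45, Mcm10 and GINS turn that ring into a moving helicase. Many of these genes are controlled by E2F factors and are transcribed around the start of S phase, while subunits with further duties can be made throughout the cycle. In the colon, replicating cells lie in the lower crypt and differentiated cells above them.

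Replication genes were mostly higher in dividing crypt cells and, by smaller amounts, in crypts after β-catenin induction. Values are on the log2 scale, and a difference is the GFPlow value less the GFPhigh value, or the Dox plus value less the Dox minus value. A gene counted as measured in a pair if it reached a floor of 5 on at least 1 of the 2 arrays, and any value below that was raised to the floor, which makes such a difference a lower bound on its size. In the GFP pair 26 of 46 measured members had a GFPlow value 2-fold or more above GFPhigh (56.5%, against 8.81% of all 9381 measured genes), 15 reached 3-fold (against 3.71%) and 0 were 2-fold lower (against 4.3%). Their median difference was 1.12 (2.18-fold), beside 0.04 over all genes, and 43 of the 46 were above 0 (93.5%, against 53.2%). In the Dox pair 6 of 47 reached 2-fold higher values in Dox plus (12.8%, against 6.93% of all 9537 measured genes), 1 was 3-fold higher (against 2.09%) and 0 were 2-fold lower (against 5.35%). The median there was 0.60 (1.51-fold), beside 0.06 over all genes, with 44 of 47 above 0 (93.6%, against 55% of all genes). So the Dox pair showed a small difference in one direction across nearly all members, with few of them past 2-fold. The count of 6 was 11 when each gene's measured probe sets were averaged and 3 after quantile normalization.

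**Figure D1:**
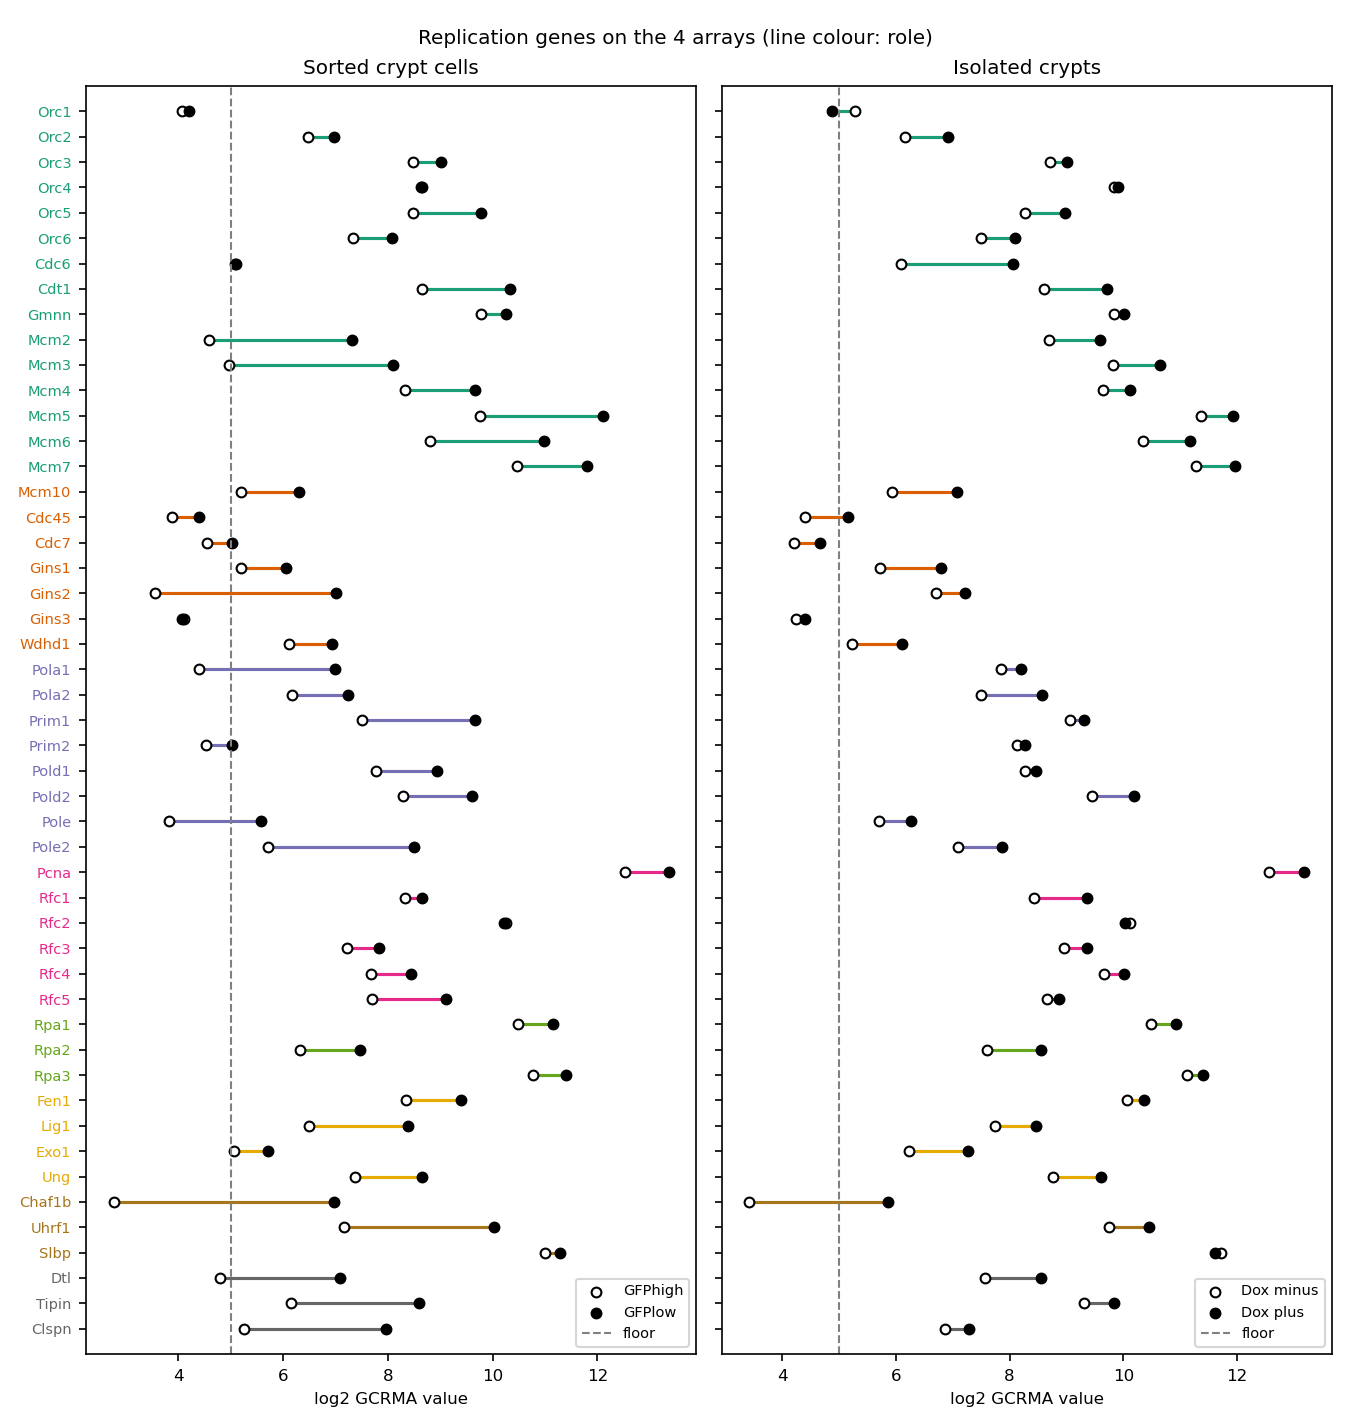
Value of each member on the 4 arrays (x axis, log2 GCRMA value), with sorted cells on the left and isolated crypts on the right; open points are GFPhigh or Dox minus, filled points GFPlow or Dox plus, the line colour gives the role and the dashed line the floor of 5. Lines are drawn without the floor. With values raised to the floor, the difference was larger in the GFP pair for 36 of the 45 members measured in both pairs. It was larger in the Dox pair for 9, a split that was not counted over all genes. Uhrf1 has a long line on the left, from 7.17 to 10.03. Cdc6 is the member with the longest line between values above the floor on the right, from 6.10 to 8.05.

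The promoters of 7 members are shown because they belong to members at the ends of the range of floored differences: Mcm3, Uhrf1 and Pole2 with the largest GFP differences, Cdc6, Mcm10 and Cdt1 with the largest Dox differences, and Orc4 and again Cdc6 with GFP differences nearest 0. Bounds were ranked as they stand: without a floor Chaf1b (4.20) and Gins2 (3.47) had the largest GFP differences, and Chaf1b (2.44) the largest Dox difference. Each line gives the 150 bases before the gene's first listed start, from RefSeq on GRCm38.p6, read 5′ to 3′ on the gene's strand. Capitals mark matches on either strand to an E2F-like motif (TTCCCGC or TTGGCGC or TTCGCGC or TTGCCGC) or to CCAAT. The positions are chr1:20820313-20820462 (minus strand) for Mcm3, chr17:56303187-56303336 (plus strand) for Uhrf1, chr12:69228191-69228340 (minus strand) for Pole2, chr11:98908001-98908150 (plus strand) for Cdc6, chr2:5012792-5012941 (minus strand) for Mcm10, chr8:122567865-122568014 (plus strand) for Cdt1 and chr2:48950082-48950231 (minus strand) for Orc4.
Mcm3: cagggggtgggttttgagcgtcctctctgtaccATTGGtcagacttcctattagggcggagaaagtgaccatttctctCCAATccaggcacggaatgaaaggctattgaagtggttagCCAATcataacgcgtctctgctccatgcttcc
Uhrf1: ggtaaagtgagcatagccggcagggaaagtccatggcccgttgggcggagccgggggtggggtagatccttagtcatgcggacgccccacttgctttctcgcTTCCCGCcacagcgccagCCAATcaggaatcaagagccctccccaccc
Pole2: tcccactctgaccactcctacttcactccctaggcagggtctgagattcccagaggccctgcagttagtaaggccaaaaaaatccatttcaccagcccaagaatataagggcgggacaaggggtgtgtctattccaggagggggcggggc
Cdc6: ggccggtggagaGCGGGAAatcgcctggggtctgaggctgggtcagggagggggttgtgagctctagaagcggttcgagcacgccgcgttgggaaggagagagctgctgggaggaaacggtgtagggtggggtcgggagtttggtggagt
Mcm10: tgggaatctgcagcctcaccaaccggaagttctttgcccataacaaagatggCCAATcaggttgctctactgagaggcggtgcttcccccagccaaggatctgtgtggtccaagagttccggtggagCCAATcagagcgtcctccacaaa
Cdt1: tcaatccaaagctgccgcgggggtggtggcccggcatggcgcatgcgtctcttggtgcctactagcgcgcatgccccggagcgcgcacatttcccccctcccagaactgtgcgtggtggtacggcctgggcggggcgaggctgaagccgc
Orc4: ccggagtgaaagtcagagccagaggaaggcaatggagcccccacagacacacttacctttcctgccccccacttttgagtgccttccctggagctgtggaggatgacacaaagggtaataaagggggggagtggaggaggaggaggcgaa
Uhrf1 has an E2F-like match that begins 48 bases before the start, and Cdc6 has its match 138 bases before it. The E2F-like matches of Mcm3 (3), Cdt1 (2) and Pole2 (1) lie in the first 50 bases after the start, which are not printed. Mcm10 shows CCAAT matches at 98 and 23 bases before the start and no E2F-like match, and Orc4 shows neither motif.

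The E2F-like motif was more frequent in the members' promoters than over all promoters. The members were listed by name as replication genes, many of them controlled by E2F factors, so that share is not independent of the choice of list. Promoter windows of 250 bases before to 50 after the start were held for 40 members, and 24 of them had an E2F-like match (60%), against 9.69% of 27025 promoters in the table. CCAAT was found in 24 of 40 (60%, against 37.9%), the CHR letters TTTGAA in 5 (12.5%, against 18.1%) and the E-box CACGTG in 4 (10%, against 7.24%). An E2F-like match was present in 14 of 23 members past 2-fold in the GFP pair (60.9%) and in 8 of 14 measured members under 2-fold (57.1%). In the Dox pair it was present in 2 of 4 members past 2-fold (50%) and in 20 of 34 under 2-fold (58.8%). A match is a run of letters in this window and says nothing of binding.

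The 14 licensing genes measured in the GFP pair had a median difference of 1.31. All 6 genes of Mcm2 to Mcm7, the subunits of the ring that unwinds DNA, passed 2-fold in GFPlow, with a median of 2.24 (4.73-fold). Mcm3 was under the floor at 4.98 in GFPhigh and read 8.11 in GFPlow, a difference of at least 3.11 that ranked 20 among all measured genes. Its Dox minus value was 9.81 and its Dox plus value 10.65, a difference of 0.84. The Mcm3 probe set has the ending _s_at and can match several transcripts, and the other Mcm3 probe sets measured in the GFP pair gave bounds of 1.89 and 2.37, and those measured in the Dox pair gave Dox differences from 0.35 to 1.86.

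Mcm2 was also under the floor in GFPhigh, at 4.59, and read 7.31 in GFPlow (at least 2.31), 8.69 in Dox minus and 9.59 in Dox plus (0.91). Mcm5 read 9.76 in GFPhigh and 12.11 in GFPlow (2.35), then 11.36 and 11.92 in Dox minus and Dox plus (0.56). Mcm6 read 8.81 and 10.98 in the GFP pair (2.18), and 10.35 and 11.17 in the Dox pair (0.82). On the probe sets used, these 4 subunits were higher in GFPlow by over 2 on the log2 scale. A second Mcm2 probe set gave a bound of 1.37 in the GFP pair, and the one used gave at least 1.31 with a floor of 6. Mcm4 (1.34) and Mcm7 (1.32) were also past 2-fold in GFPlow. After doxycycline the 6 subunits differed by 0.46 (Mcm4) to 0.91 (Mcm2), with a median of 0.76 and 0 of 6 past 2-fold on the probe sets used. That count depends on the probe set, since others gave 1.32 for Mcm5, 1.06 for Mcm7 and up to 1.86 for Mcm3. Their direction was the same in each measured probe set of both pairs.

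The origin recognition complex marks origins and recruits the loaders. Of its 5 subunits measured in the GFP pair, Orc5 alone was past 2-fold (1.30), with Orc6 at 0.75, Orc3 at 0.54 and Orc2 at 0.49, and the median was 0.54. Orc4 read 8.65 in GFPhigh, 8.64 in GFPlow, 9.83 in Dox minus and 9.90 in Dox plus. That is no shift in either pair on this probe set (-0.01 and 0.08), and the other measured Orc4 probe sets gave -0.15 and -0.34 in the GFP pair and -0.40 and -0.05 in the Dox pair. Orc1 was under the floor on 3 of 4 arrays, at 5.27 in Dox minus, so its Dox difference of -0.27 is a bound. The other 5 subunits lay between 0.08 and 0.76 in the Dox pair, and a second Orc2 probe set, under the floor in Dox minus, gave at least 2.04 beside the 0.76 of the one used.

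Cdc6, the ATPase that brings the helicase to the origin complex, had the largest Dox difference of the members on the floored values of the probe sets used, and a difference near 0 in sorted cells. Chaf1b without a floor (2.44) and other probe sets of Rfc1 (2.21) and Orc2 (at least 2.04) exceeded it. It read 5.10 in GFPhigh and 5.09 in GFPlow, both just above the floor (-0.02), and 6.10 in Dox minus and 8.05 in Dox plus, a difference of 1.95 (3.87-fold) that ranked 100 of 9537 genes. Cdc6 has 1 probe set, so no second reading of it was possible. Cdt1, its partner in loading, was higher in both pairs, at 8.66 and 10.33 in GFPhigh and GFPlow (1.67) and at 8.60 and 9.71 in Dox minus and Dox plus (1.11). A second Cdt1 probe set gave 2.40 and 1.31. Gmnn, which encodes geminin, the inhibitor of Cdt1, differed by 0.49 and 0.18.

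The genes that turn the loaded ring into an active helicase lay close to the floor on several arrays, and 3 of 7 had at most 1 value at or above it. Mcm10, which helps the helicase start moving, read 5.19 in GFPhigh and 6.30 in GFPlow (1.10, but 0.30 with a floor of 6), and 5.93 in Dox minus and 7.07 in Dox plus (1.14). Gins2, a subunit of the GINS complex, was under the floor at 3.55 in GFPhigh and read 7.02 in GFPlow (at least 2.02), 6.70 in Dox minus and 7.21 in Dox plus (0.51). Gins1, another GINS subunit, read 5.20, 6.06, 5.71 and 6.79 in GFPhigh, GFPlow, Dox minus and Dox plus, for differences of 0.86 and 1.08. Mcm10 was thus past 2-fold in both pairs, Gins2 in the GFP pair and Gins1 in the Dox pair, though Gins1 fell short there after quantile normalization (0.96) and with a floor of 6 (0.79). Wdhd1, which ties the helicase to polymerase alpha, read 6.12 and 6.94 in the GFP pair (0.82) and 5.23 and 6.11 in the Dox pair (0.88). Gins3 was under the floor on all 4 arrays, Cdc45 reached it in Dox plus only (5.16, at least 0.16), and the firing kinase Cdc7 in GFPlow only (5.02, at least 0.02).

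All 8 polymerase and primase genes had higher values in GFPlow, 6 of them past 2-fold, with a median of 1.24. Pole2, an accessory subunit of the leading-strand polymerase epsilon, read 5.71 in GFPhigh and 8.50 in GFPlow (2.79, rank 35), and 7.09 in Dox minus and 7.87 in Dox plus (0.77). The catalytic subunit Pole was under the floor in GFPhigh at 3.83 and read 5.58 in GFPlow, 5.71 in Dox minus and 6.27 in Dox plus. Its GFP difference was at least 0.58 and became 1.58 with a floor of 4, so the gap between Pole and Pole2 is not settled by these values.

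Prim1, the primase subunit that starts each RNA primer, read 7.51 and 9.66 in GFPhigh and GFPlow (2.15), and 9.06 and 9.30 in Dox minus and Dox plus (0.24). Pola1, the catalytic subunit of polymerase alpha, was under the floor at 4.40 in GFPhigh and read 7.00 in GFPlow (at least 2.00), 7.85 in Dox minus and 8.19 in Dox plus (0.35). Pola2, its accessory subunit, read 6.17 and 7.25 (1.08), and 7.50 and 8.56 (1.06). Within this complex Prim1 and Pola1 had the larger GFP differences, and Pola2 was the 1 subunit past 2-fold in the Dox pair, a call lost after quantile normalization (0.91). Prim2 was under the floor in GFPhigh (4.53) and near it in GFPlow (5.03), while a second Prim2 probe set gave a bound of 1.09. The lagging-strand polymerase delta genes differed by 1.17 (Pold1) and 1.31 (Pold2, 8.29 and 9.60) in the GFP pair. Pold1 differed by 0.18 and Pold2 by 0.73 (9.45 and 10.18) after doxycycline.

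The sliding clamp and its loader had 1 of 6 genes past 2-fold in sorted cells, with a median of 0.69. Pcna, the clamp that holds polymerases on DNA, was well above the floor on all arrays, at 12.53 and 13.36 in GFPhigh and GFPlow (0.83) and 12.55 and 13.18 in Dox minus and Dox plus (0.63). Rfc5, a small subunit of the RFC loader, read 7.70 and 9.11 (1.41), and 8.66 and 8.86 (0.21). Rfc4 read 7.68 and 8.45 (0.77), and 9.66 and 10.00 (0.35). For Rfc3 the values were 7.23 and 7.83 (0.61), and 8.96 and 9.36 (0.40). Among the small subunits Rfc5 was therefore past 2-fold, and other probe sets of Rfc3 and Rfc4 were too, at 1.04 and 1.40.

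Rfc1, the large subunit, showed how far probe sets of a gene can differ. Its brightest probe set read 8.34 in GFPhigh, 8.65 in GFPlow, 8.43 in Dox minus and 9.36 in Dox plus, for differences of 0.31 and 0.93. Its other probe sets gave 0.76 and 2.22 in the GFP pair, and 1.22 and 2.21 in the Dox pair. Rfc2 had values that were flat or slightly lower: 10.25 and 10.21 in the GFP pair (-0.04), and 10.12 and 10.02 in the Dox pair (-0.10). Its other probe sets gave -0.55 and 0.26 in the GFP pair, which differ in sign, and -0.33 and -0.47 in the Dox pair.

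RPA coats single-stranded DNA behind the helicase, and its 3 genes were higher in both pairs, with 1 past 2-fold. Rpa2 read 6.33 and 7.47 in GFPhigh and GFPlow (1.14), and 7.61 and 8.56 in Dox minus and Dox plus (0.95), and a second Rpa2 probe set gave 2.17 and 1.20. Rpa1, the largest subunit, read 10.49 and 11.16 (0.67), and 10.49 and 10.92 (0.43). Rpa3 read 10.78 and 11.40 (0.62), and 11.12 and 11.40 (0.28).

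Genes that finish the lagging strand and repair new DNA were all higher in GFPlow, 3 of 4 past 2-fold. Lig1, the ligase that seals Okazaki fragments, read 6.49 and 8.39 (1.90) in the GFP pair, and 7.75 and 8.46 (0.72) in the Dox pair. Fen1, the nuclease that trims their flaps, read 8.35 and 9.41 (1.06), and 10.07 and 10.36 (0.29), with 1.94 and 1.02 on its second probe set. Ung, which removes uracil from DNA, read 7.37 and 8.65 (1.28), and 8.76 and 9.60 (0.84). Exo1, an exonuclease of mismatch repair, was the 1 gene of these 4 past 2-fold in the Dox pair, at 6.23 and 7.27 (1.04, but 0.92 after quantile normalization), and read 5.07 and 5.72 in GFPhigh and GFPlow (0.65).

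Of the genes that rebuild chromatin, Uhrf1 and Chaf1b had large GFP differences and Slbp did not. Uhrf1, which brings the maintenance DNA methyltransferase to replicated DNA, read 7.17 and 10.03 in GFPhigh and GFPlow (2.86, rank 32), and 9.74 and 10.46 in Dox minus and Dox plus (0.72). A second Uhrf1 probe set gave a bound of 1.63, and 1.41. Chaf1b, a subunit of the histone chaperone CAF-1, was under the floor in GFPhigh (2.77) and Dox minus (3.42), and read 6.97 in GFPlow (at least 1.97, or 0.97 with a floor of 6) and 5.87 in Dox plus (at least 0.87). Slbp, which binds histone mRNA, read 10.99 and 11.29 (0.29), and 11.71 and 11.61 (-0.10), and a second Slbp probe set gave -0.56 in the GFP pair.

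The fork-protection and turnover genes had a GFP median of 2.45 over 3 genes, all past 2-fold. Clspn encodes claspin, which relays the stalled-fork signal to the kinase Chk1, and it read 5.25 in GFPhigh and 7.97 in GFPlow (2.71, rank 43). Tipin, a partner of Timeless at the fork, read 6.15 and 8.60 (2.45, rank 80). Dtl, the adaptor of the ubiquitin ligase that destroys Cdt1 in S phase, was under the floor at 4.81 and read 7.10 (at least 2.10). In the Dox pair the same genes differed by less: Clspn read 6.87 and 7.28 (0.42), Tipin 9.31 and 9.83 (0.52), and Dtl 7.57 and 8.54 (0.97). The chromatin genes had a GFP median of 1.97, which is the bound of Chaf1b, and of 2.86 with a floor of 4 or none, so the order of these roles turns with the floor.

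**Figure D2:**
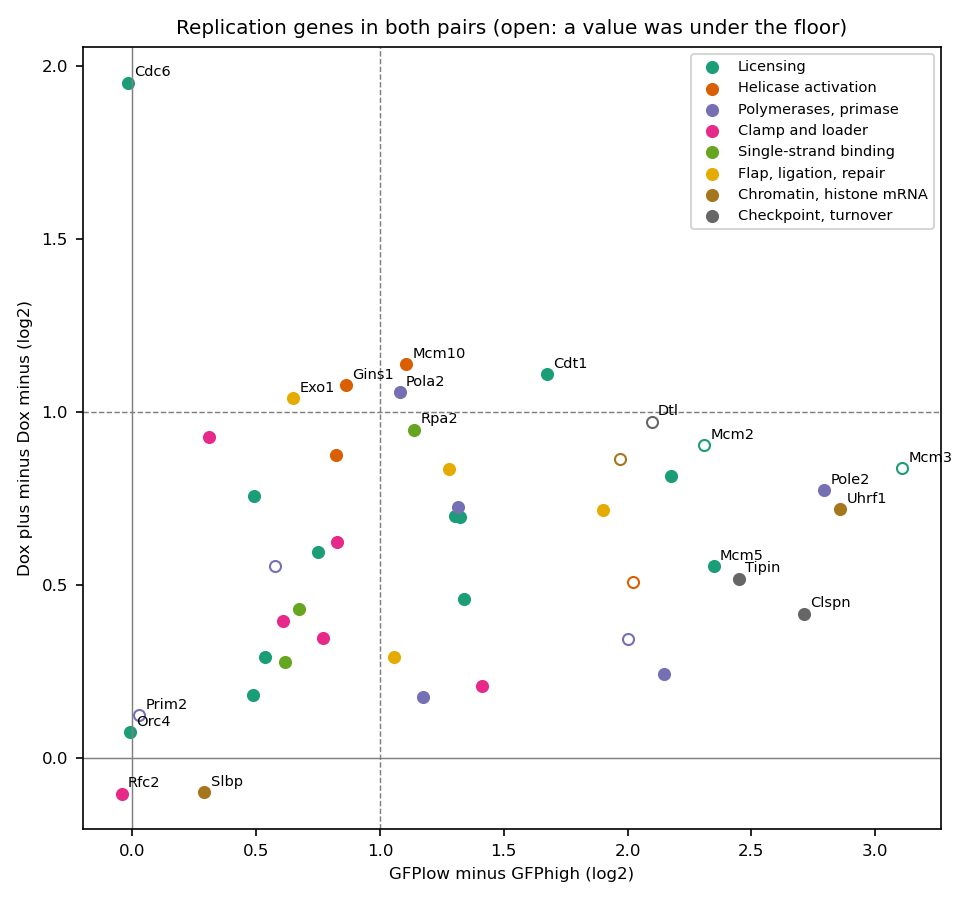
Difference in the GFP pair (x axis, log2 GFPlow minus GFPhigh) against difference in the Dox pair (y axis, log2 Dox plus minus Dox minus) for the 45 members measured in both; colours give roles, open points had a value under the floor and dashed lines mark 2-fold. Cdc6 lies alone at the upper left (-0.02 and 1.95), while Mcm3, Uhrf1, Pole2 and Clspn lie at the right with Dox differences under 1.

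The pairs differed in which members had the larger differences. Of 45 members measured in both pairs, 41 were above 0 in both (37.4% of 9023 genes measured in both were) and 3 were past 2-fold in both, namely Cdt1, Mcm10 and Pola2 (2.03% of those genes were), of which Mcm10 and Pola2 each lost 1 call under an alternative given above. The difference was larger in the GFP pair for 36 of the 45 and larger in the Dox pair for 9, a split that was not counted over all genes. Across the 45 genes Pearson's r was 0.16 and Spearman's rho 0.25, and over the 37 with no value under the floor they were 0.06 and 0.19. These are descriptions across genes, which are not independent replicates and are read from the same arrays. In such samples a change in the number of replicating cells and a change in RNA per cell cannot be told apart.

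Most members with more than 1 measured probe set gave the same direction in each, although sizes varied. In the GFP pair 19 of 21 such members kept 1 direction, Rfc2 and Slbp being the exceptions, and 11 of 12 called members were 2-fold higher in every measured probe set. Gins2 was the exception there, with a bound of 0.60 on its second probe set. In the Dox pair 21 of 22 kept 1 direction, Orc4 being the exception. Of 21 such members under 2-fold in the Dox pair, 8 had another probe set at or past 2-fold.

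**Figure D3:**
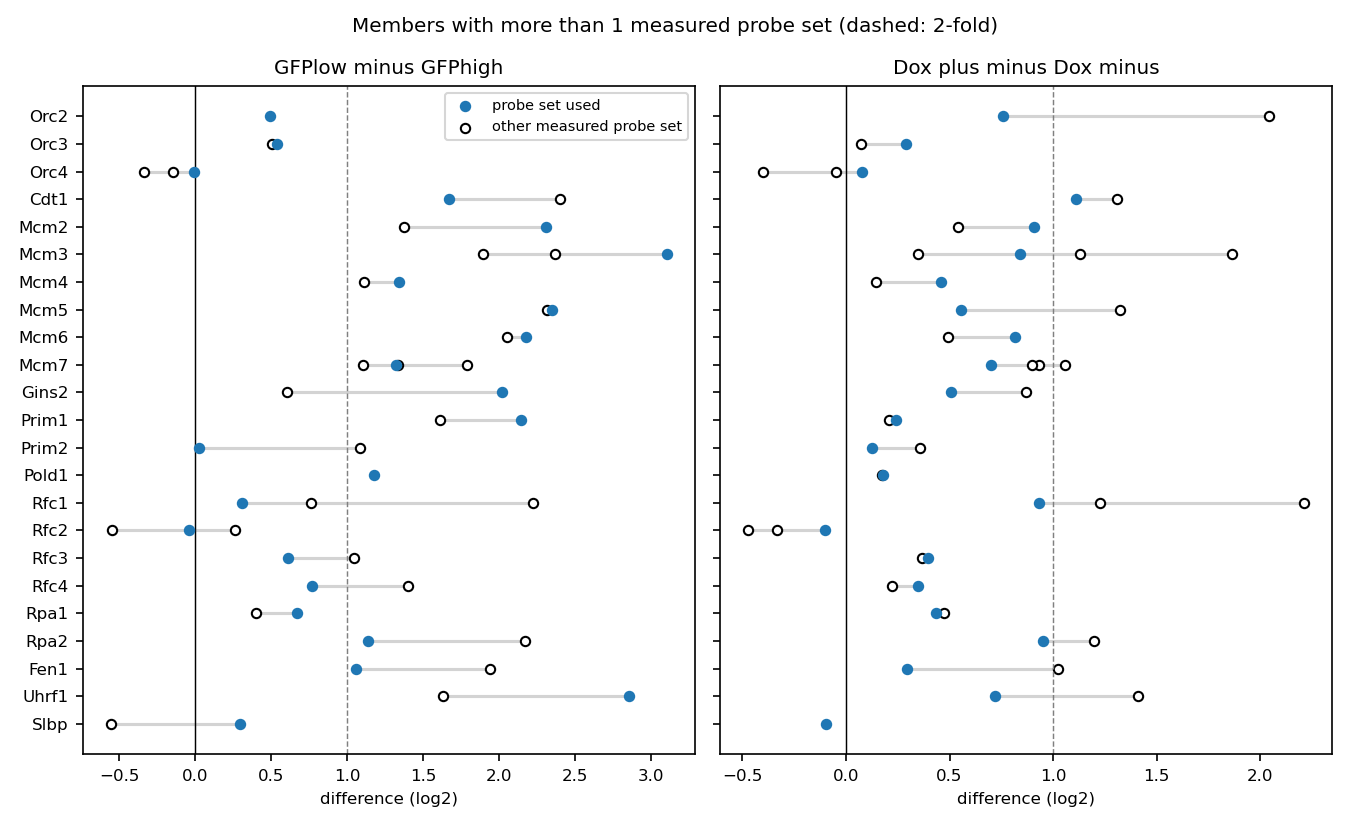
Difference (x axis, log2) of each measured probe set for members with more than 1, in the GFP pair on the left and the Dox pair on the right; filled points are the probe sets used, open points the others, and the dashed line marks 2-fold. Rfc1 spans 0.31 to 2.22 on the left and 0.93 to 2.21 on the right, and the Rfc2 points lie on both sides of 0 on the left.

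Other genes of replication were read from lists made by function. Of 27 measured further replication factors, 7 passed 2-fold higher in GFPlow (25.9%, against 8.81% of all genes) and 0 passed it lower (against 4.3%). Their median was 0.50. In the Dox pair 3 of 28 were 2-fold higher in Dox plus (10.7%, against 6.93% of all genes) and 0 lower (against 5.35%), with a median of 0.37. In the GFP pair the largest were the histone chaperone Asf1b (at least 2.33), the nuclease-helicase Dna2 (at least 1.73), the polymerase epsilon subunit Pole3 (1.58, but 0.04 on its other probe set) and the ribonuclease H2 subunit Rnaseh2a (1.34). In the Dox pair they were Dna2 (1.68), Timeless (1.33), the polymerase delta subunit Pold4 (1.01) and Smarcad1 (0.85, or 1.16 on its other probe set). Dbf4, the activating subunit of the Cdc7 kinase, differed by 1.05 and 0.07.

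Checkpoint genes had medians of 0.41 over 8 genes and 0.64 over 7. Rad9a, part of the checkpoint clamp, differed by 1.80 and 0.55, the kinase Wee1 by 1.19 and 0.996 (just under 2-fold in the Dox pair), and the stalled-fork kinase Atr by 0.92 and 1.11. The other Wee1 probe set gave -0.05 and 1.45, and a second Atr probe set gave 0.31 in the Dox pair. Etaa1, an activator of Atr, differed by 0.46 in the GFP pair, and Hus1, another part of the clamp, by 0.64 in the Dox pair. The Atr target Chek1 differed by at least 0.13 in the GFP pair and by 0.99 in the Dox pair. Genes that supply deoxynucleotides had a GFP median of 1.41 over 7, with 4 at least 2-fold higher (57.1%, against 8.81% of all genes) and 1 lower (against 4.3%). Rrm2, the limiting subunit of ribonucleotide reductase, differed by 2.61 (down to 1.30 on other probe sets) and the thymidine kinase Tk1 by 2.23. The dUTPase Dut differed by 2.08 and Rrm1, the large reductase subunit, by 1.41 (2.14 on its other probe set). These are the 4 higher genes. Their Dox differences were 0.31 (up to 1.05 on other Rrm2 probe sets), 0.06, 0.92 and 0.43, and that of Dctpp1 was 0.70. The Dox median of the list was 0.31, with 0 genes 2-fold higher (against 6.93% of all genes) and 1 lower (against 5.35%). The lower gene in each pair was Samhd1, an enzyme that breaks deoxynucleotides down, which read 10.92 in GFPhigh and 9.85 in GFPlow (-1.07), then 9.96 in Dox minus and 8.71 after doxycycline (-1.25). Its measured probe sets ranged from -2.04 to -0.75 in the GFP pair and from -1.25 to -0.44 in the Dox pair.

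**Figure D4:**
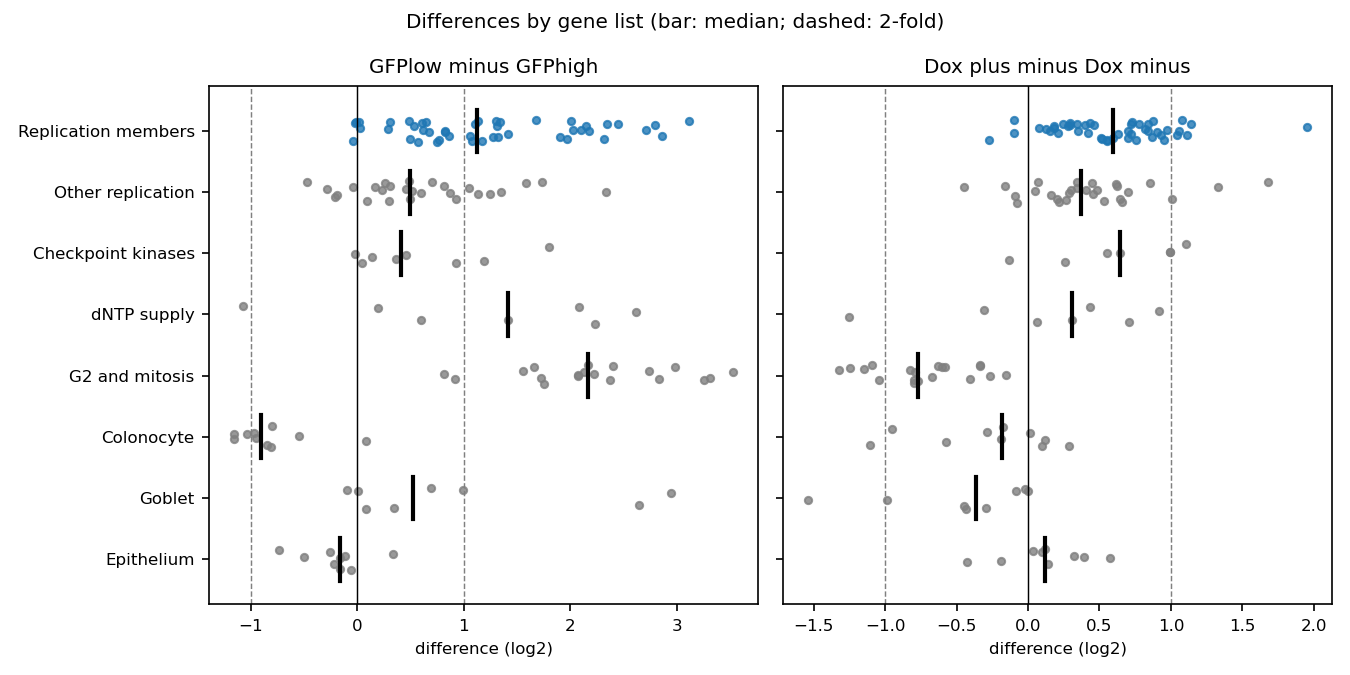
Differences (x axis, log2) of the replication members and of other gene lists, with the GFP pair on the left and the Dox pair on the right; each point is a gene, the bar is the list's median and dashed lines mark 2-fold. The members and the G2 and mitosis genes lie on the same side of 0 on the left (medians 1.12 and 2.17) and on opposite sides on the right (0.60 and -0.77).

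Genes of G2 and mitosis had the members' direction in the GFP pair and the opposite one in the Dox pair. All 19 measured had higher values in GFPlow (median 2.17), as 53.2% of all genes did, and 17 passed 2-fold (89.5%, against 8.81%). All 19 had lower values in Dox plus (median -0.77), where 55% of all genes had higher ones. There 5 of the 19 were at least 2-fold lower, against 5.35% of all genes. The largest GFP differences were those of Cdk1 (3.52), Plk1 (3.31), Bub1b (3.25) and Cenpe (2.98), and the largest Dox differences those of Ckap2 (-1.32), Aurkb (-1.24), Nusap1 (-1.15) and Cenpe (-1.09). Markers of other cell states also differed. The 9 measured epithelial markers, Epcam and Krt8 among them, were far above the floor on every array, with a mean log2 value from 13.80 to 14.06. Of 10 colonocyte markers 9 were lower in GFPlow (median -0.90, 3 at least 2-fold, against 4.3% of all genes). In Dox plus 6 were lower (median -0.18, 1 at least 2-fold, against 5.35%). Of 8 goblet markers 7 were higher in GFPlow (87.5%, against 53.2% of all genes, median 0.52). Spdef (2.94) and Atoh1 (2.64) passed 2-fold there (25%, against 8.81%), while Clca1 (0.007) and Tff3 (0.08) were near 0. In Dox plus 7 goblet markers were lower (median -0.36), from Clca1 (-1.54) to Tff3 (-0.02). The part of these mixtures in the members' differences was not tested.

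Markers of cells outside the epithelium were mostly under the floor, with several clearly above it in the Dox pair and Pdgfrb above it in the GFP pair. Of 13 leukocyte markers on the array, 1 reached the floor in GFPhigh, 3 did in GFPlow, 6 in Dox minus and 5 with doxycycline, and the summed level of the list was 7.29, 7.79, 9.55 and 8.68 on the log2 scale. The T cell gene Cd3e and the B cell gene Cd79a were under the floor on all 4 arrays. Cd8a, another T cell gene, was just above it in Dox minus (5.27) and Dox plus (5.02). The plasma cell gene Jchain read 7.53 in Dox minus and was under the floor in Dox plus at 4.32 (a bound of -2.53). Laptm5 read 7.58 and 6.05 (-1.53), and the pan-leukocyte gene Ptprc 7.19 and 6.58 (-0.61), while Lyz2 read 5.59 and 6.30 (0.71). In the GFP pair Laptm5 (3.53 and 5.53) and Lyz2 (3.32 and 5.04) were under the floor in GFPhigh and above it in GFPlow. Csf1r was just above the floor on all 4 arrays, at 5.52 in GFPhigh, 5.51 in GFPlow, 5.67 in Dox minus and 5.59 in Dox plus. Of 12 stromal markers 1 to 2 reached the floor per array, with summed levels of 7.24, 7.33, 8.92 and 7.70, and Vim read 8.43 in Dox minus and 6.64 in Dox plus (-1.78). The part of cells outside the epithelium in the Dox differences was not tested.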

How the data were processed

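Total RNA from mouse colon was labelled with biotin and hybridised to arrays, 1 per group. The authors deposited a log2 value for each of 45101 probe sets and array, which the submitters' processing notes credit to GCRMA. That method corrects background by probe sequence. The sources used here give no version of it and do not say which arrays it handled jointly, and the log2 scale was read from the values. Low values depend on the background model, so a floor of 5 was set. A platform annotation gave 34958 probe sets 1 symbol, 932 several and 9211 none. Only the first kind was used, with the highest-mean probe set per gene.

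Differences were taken within a pair, and 2-fold was counted. No test was run, and the 4 arrays limit precision. The members, lists, naming rule and alternatives were chosen with earlier results of these data known. Values on all 4 arrays are given for the members with the 4 largest differences in each role and pair and for those whose probe sets disagree in sign, beside further members by their differences. Of each other replication list the 4 genes with the largest differences in a pair are named. Dbf4 and the named marker genes fall outside this and were chosen after their values were seen. Mcm10 was placed with the helicase activators. The alternatives were other floors, scalings, probe set rules and a 3-fold threshold. The code was checked on simulated data with known shifts, given only to genes well above the floor. That check says nothing of differences near the floor. Python 3.11.15, pandas 2.3.3 and statsmodels 0.14.6 were used. Promoters come from RefSeq (GRCm38.p6), with 40 of 49 members matched by symbol and the first listed start used.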

Additional observations from a re-analysis of the deposited data

How the results depend on the processing

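The alternatives were floors of 4 and 6, no floor, quantile normalization, a loess correction (span 0.4), averaged probe sets, a filter that drops the endings _x_at, _s_at and _a_at, and a 3-fold threshold. The GFP median of the members ran from 1.08 to 1.31 and the Dox median from 0.53 to 0.66, and 0 members were 2-fold lower in either pair under any of these. A 3-fold threshold left 15 members higher in GFPlow and 1 in Dox plus. The Dox count of 6 was 3 with quantile normalization and 11 with averaged probe sets, and lay between 5 and 7 with the other floors, loess and the probe set filter. With a floor of 6 the chromatin genes had a GFP median of 0.97 and a Dox median of 0.31, and with a floor of 4 or none their GFP median was 2.86, above the 2.45 of the fork-protection genes. The checkpoint gene median in the GFP pair was 0.64 with a floor of 4, and the Dox median of the deoxynucleotide genes was 0.56 with averaged probe sets. Signs turned for members near 0: Orc4 in the Dox pair (-0.12 averaged, -0.40 without such endings), Prim2 in the Dox pair (-0.019 with quantile normalization), and in the GFP pair Cdc6 (0.0013 with loess) and Slbp (-0.13 averaged). The median over all genes was -0.014 for GFP and -0.094 for Dox without a floor, and -0.0076 for Dox with quantile normalization. The causes were not tested. Of 629 member differences under an alternative, 579 kept their direction, their side of 2-fold and a size within a wide margin. Under that margin Mcm3 in the GFP pair counted as kept at 1.89 without such endings, beside 3.11. Some differences could not change, as with averaging where a gene has 1 probe set. Members that an alternative left unmeasured were not counted. No paired analysis was possible because each group has 1 array.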

Other observations

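Levels of the same probe set also differed between the pairs, which differ in mouse line, in the sort and possibly in processing, so these cannot be told apart. Of 79 member probe sets that reached the floor on at least 1 array, 65 had a higher mean in the Dox pair than in the GFP pair. The median difference was 0.87, and 15 differed by over 2 on the log2 scale. That count was not made over all probe sets. Over all genes measured in each pair the mean values were 9.34 in GFPhigh, 9.45 in GFPlow, 9.16 in Dox minus and 9.22 in Dox plus. The largest member difference was in the other direction: a second Slbp probe set averaged 7.94 over the GFP arrays and 2.34 over the Dox arrays. The Slbp probe set used above was at 10.99 or above on all 4 arrays. Next came Mcm3, at 3.32 and 7.41 on a probe set not used above, and at 6.54 and 10.23 on the one used. Prim2 averaged 4.78 over the GFP arrays and 8.20 over the Dox arrays.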
